A study of Aedes aegypti with 19 samples.

Results

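Insects keep a set of secreted proteins in their body fluid that turns the detection of a microbe or a wound into melanin or into Toll signalling. CLIP-domain serine proteases (CLIPs) cut and activate one another in a cascade. The last proteases of the cascade cleave either prophenoloxidase (PPO), the inactive form of the enzyme that makes melanin, or Spätzle, the ligand of the Toll receptor. Serpins (SRPNs) end the reaction by binding to an active protease and trapping it. In *Drosophila* a related cascade in the space around the egg sets the dorsal and ventral sides of the embryo, and in mosquitoes melanin darkens the shell of eggs after they are laid. Prophenoloxidases are made mostly by hemocytes, the blood cells of insects.

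The genes described here are those whose symbol in the deposited tables starts with CLIP, SRPN or PPO, which makes 79 of 19381 genes. They comprise 53 CLIP genes, in the subclasses CLIPA (6 genes), CLIPB (29), CLIPC (8), CLIPD (6) and CLIPE (4), together with 19 SRPN and 7 PPO genes. RNA-Seq libraries were made from pooled ovaries of *Aedes aegypti* mosquitoes that had received warmed sheep blood at an age of 4 to 7 days (BF) or a sugar meal in its place (SF). Dissection followed 3, 10 or 20 days after the meal (post blood meal, PBM). The groups are BF and SF ovaries of day 3, BF and SF ovaries of day 10, and BF and SF ovaries of day 20, with 3 libraries each (replicates 1, 2 and 4) and a further library (replicate 3) in day 3 BF. All mosquitoes came from a strain from Poza Rica, Mexico, and were kept on 10% sucrose without another blood meal. Blood-fed females could lay their eggs, and eggs that remained were taken out of the ovaries, so that the later BF groups are ovaries after egg laying. Each library pools the ovaries of several females together with any cells attached to them, and fewer cells of a type and less RNA per cell cannot be told apart in such pools.

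Between 34651820 and 56274885 read pairs per library fell on genes. Reads on introns made up between 9.11% and 13.2% of the gene reads in the 4 day 3 BF libraries, against 3.95% to 6.15% in the other 15, and the part of this difference in the day 3 results was not tested. The symbols of the germline markers that had been listed do not occur in the tables, so the tissue label was not checked against them. Some markers of other cell types did differ. The 24 LRIM genes encode leucine-rich repeat proteins, and some proteins of this family are plasma proteins made by hemocytes and fat body. The genes were listed by symbol, and whether each of the 24 marks such cells was not checked. Their summed level was 192 to 238 CPM (counts scaled to the library's total of gene reads) in day 3 BF libraries and 122 to 130 CPM in day 3 SF libraries. Of the 17 LRIM genes that were tested, 10 were called higher on day 3. Of all tested genes 32.3% were, and 47.8% of those at or below 10 RPKM (a level scaled by exon length). LRIM16 made up much of the difference between the sums, with 74.4, 89.6, 72.0 and 73.1 CPM in BF replicates 1 to 4, against 14.1, 15.8 and 12.2 CPM in SF replicates 1, 2 and 4, while LRIM18 overlapped between the groups. LRIM21, another large part of the sums, had 75.8 to 84.6 CPM in BF and 67.5 to 74.2 CPM in SF libraries. The scavenger receptor genes SCRB3 and SCRB9 summed to between 76.1 and 183 CPM in day 3 BF and to between 16.6 and 19.8 CPM in day 3 SF libraries. Most of this was SCRB9, at 71.7 to 175 CPM in BF and 14.9 to 18.0 CPM in SF libraries. SCRB3 had 4.48 to 7.48 CPM in BF and 1.54 to 2.59 CPM in SF libraries. Of the 7 PPO genes, whose proteins are made mostly by hemocytes, 0 were called on day 3. The LRIM sums ran from 140.2 to 169 CPM in BF and from 100.2 to 107 CPM in SF libraries of day 10. On day 20 they ran from 116 to 152 CPM in BF and from 93.3 to 111 CPM in SF libraries. Whether such cells contribute to the results on CLIP, SRPN and PPO genes was not tested.

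Levels were compared between genes in RPKM, which is scaled by exon length, and between libraries in CPM of all gene reads after TMM scaling. The 79 genes covered a wide range of levels. Over the 19 libraries, 51 of them had a mean under 1 RPKM, 14 between 1 and 10 RPKM, and 14 above 10 RPKM. Serpins held the highest levels. SRPN9 had a mean level of 138 RPKM and took 39.8% of the summed RPKM of its class, followed by SRPN3 at 69.5 RPKM. Among CLIPB genes CLIPB13A led with 89.2 RPKM and CLIPB5 followed with 32.8 RPKM, and among CLIPC genes CLIPC2 had 28.7 RPKM and CLIPC3 23.4 RPKM. The leading members of the other classes were much lower, with 1.06 RPKM for CLIPA1, 2.77 RPKM for CLIPD6, 4.79 RPKM for CLIPE12 and 0.701 RPKM for PPO6. CLIPA1 led its class only through day 3 BF libraries. In every library of the other groups CLIPA15 was above it, at 0.623 to 1.13 RPKM, against 0.184 to 0.756 RPKM for CLIPA1. The 7 PPO genes together came to 2.04 RPKM. Ovaries of all 6 groups thus held high levels of a few serpins and CLIPB and CLIPC proteases, and low levels of prophenoloxidase transcripts.

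The comparison of BF with SF ovaries asks how the blood meal changed these genes on each day. A gene was called when edgeR's FDR p-value over all 13904 tested genes was under 0.05, and 72 of the 79 members passed the filter on low counts and were tested. On day 3 PBM, 30 of the 72 tested members (41.7%) were called higher and 11 (15.3%) lower in BF ovaries. Of all tested genes 32.3% were called higher and 32.6% lower. The median log2 fold change was 0.48 over the members and 0.02 over all tested genes. On day 10, 8 members (11.1%) were called higher and 1 (1.39%) lower, beside 8.55% and 10.7% of all tested genes. On day 20, 13 members (18.1%) were called higher and 0 lower, beside 9.31% and 12.1% of all tested genes. Most tested members, 58, had a mean at or below 10 RPKM. Of these 13.8% were called higher and 1.72% lower on day 10, and 20.7% and 0% on day 20. Of all tested genes at that level 12.4% were called higher and 2.28% lower on day 10, and 12.9% and 3.08% on day 20. An unadjusted p under 0.05 in edgeR went with 3 lower members on day 20, and DESeq2 called 1 member lower. With the replicate number as a block in the edgeR fit, members called higher and lower were 26 and 12 on day 3, 13 and 5 on day 10, and 16 and 2 on day 20. Of all calls 49.6%, 45.5% and 44.6% were higher in that fit on these days. Upper-quartile scaling, which moved the median of all genes on day 3 to 0.12, gave 32 higher and 9 lower members on day 3, 13 and 0 on day 10, and 17 and 0 on day 20. The split of all genes turned round with it on the later days, as 68.4% of all calls on day 10 and 66.2% on day 20 were then higher, against 44.3% and 43.5% with TMM. Of the 72 members, 44 were called on at least 1 day and 28 on none.

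**Figure D1:**
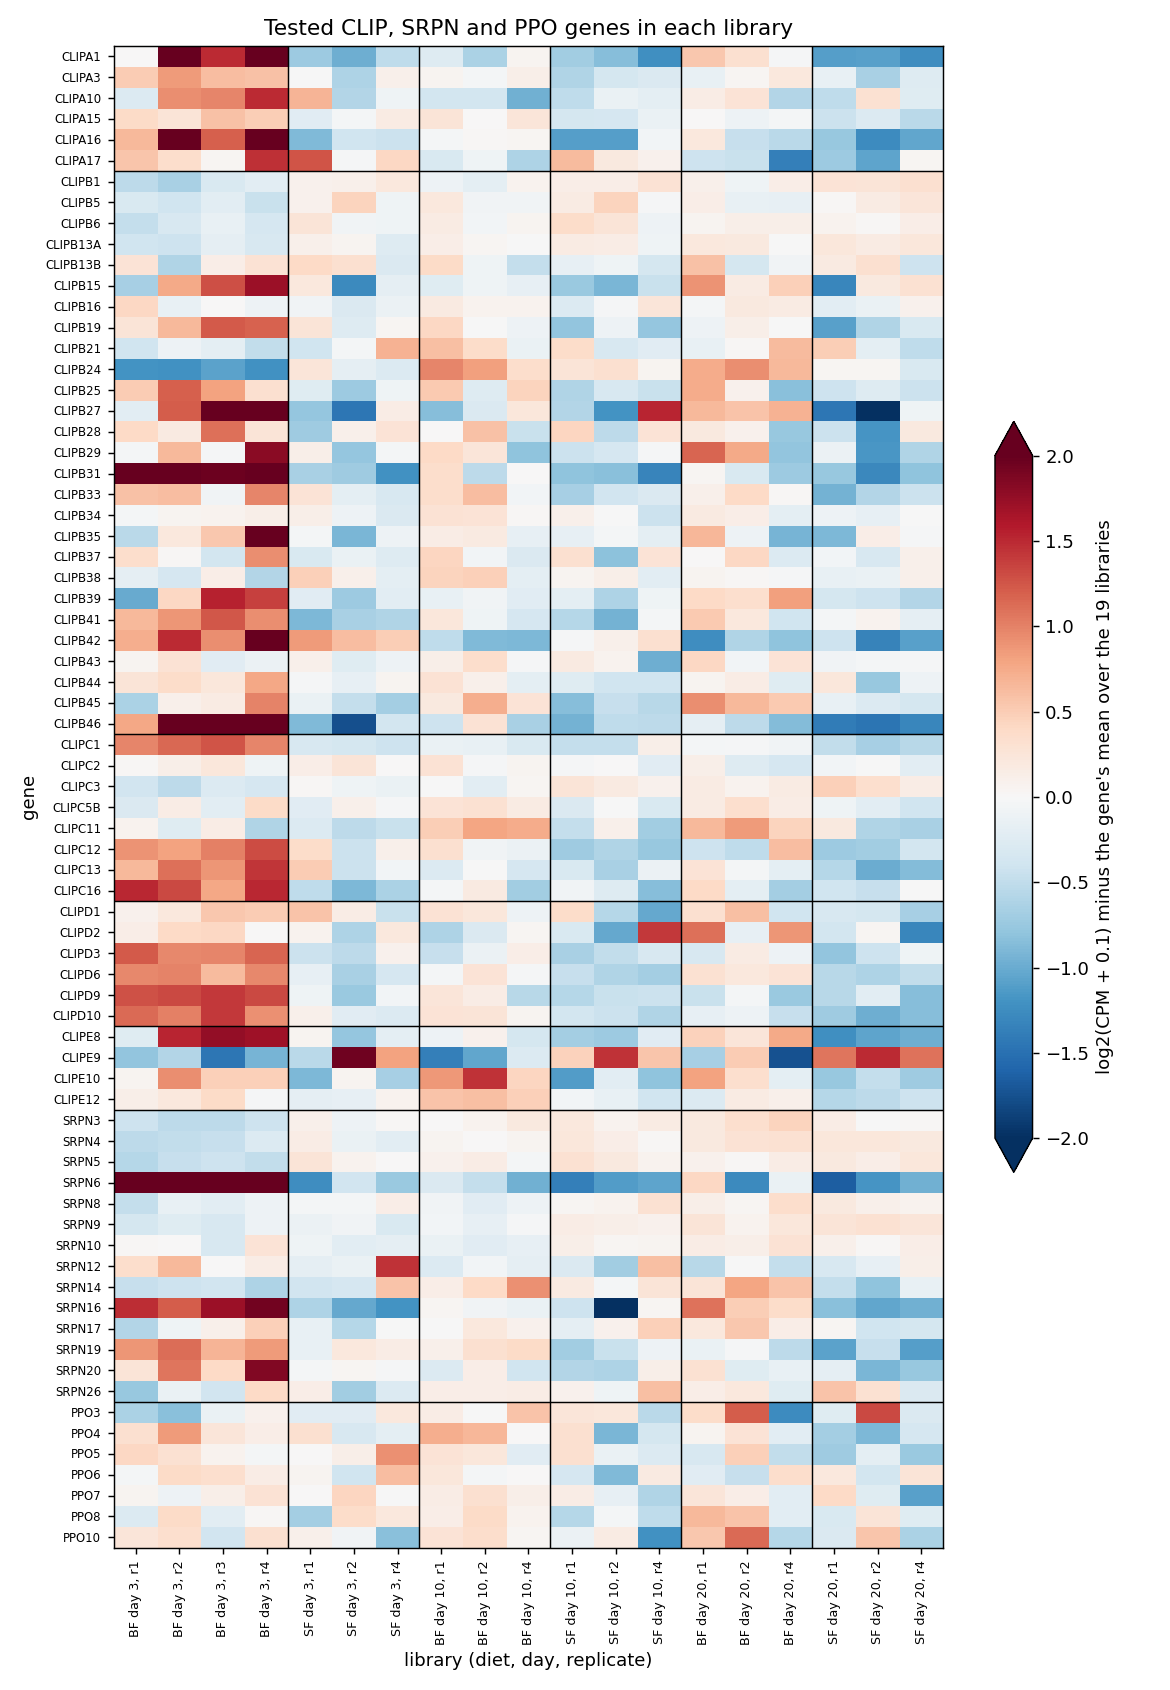
Level of each of the 72 tested genes (rows, by class) in each of the 19 libraries (columns, by diet, day and replicate), as log2(CPM + 0.1) minus the mean of that gene over all libraries, with the colour scale ending at 2 in either direction. The 4 day 3 BF columns stand out in both directions, while PPO rows at the bottom show no block of colour.

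CLIPA proteins are mostly protease homologs that lack a working catalytic site and act as cofactors of the cascade. Of the 6 CLIPA genes, all tested, 4 were called higher and 0 lower in BF ovaries on day 3. All had means at or below 10 RPKM, where 47.8% of all tested genes were called higher and 8.66% lower. CLIPA1 (chromosome 3, 256667088 to 256670733) had 1.34, 9.94, 3.93 and 24.4 CPM in day 3 BF ovaries (replicates 1 to 4 in this order), against 0.760, 0.624 and 0.908 CPM in day 3 SF ovaries (replicates 1, 2 and 4, an order kept below). All BF libraries lay above all SF libraries, but the BF libraries were spread widely. The log2 fold change was 3.69 (SE 0.69, FDR p-value 2.1e-04), and 2.72 without BF replicate 4. CLIPA16 had 0.361, 2.34, 0.578 and 2.07 CPM in BF and 0.0600, 0.1248 and 0.118 CPM in SF ovaries, again without overlap, and rose by 3.68 on the log2 scale (SE 0.67, FDR p-value 1.11e-04). The changes of CLIPA3 and CLIPA15 were smaller, with log2 fold changes of 0.85 and 0.47. Both fell short of the threshold when only exon reads were tested (FDR p-values of 0.105 and 0.146), and CLIPA15 also without SF replicate 1 (0.0597). On day 10 CLIPA15 was the 1 CLIPA gene called, at 5.90, 4.93 and 5.83 CPM in BF and 3.84, 3.88 and 4.48 CPM in SF ovaries (log2 fold change 0.45, FDR p-value 0.0366). That call ended without BF replicate 1 or 4 or SF replicate 1 or 2, with FDR p-values between 0.0933 and 0.113. CLIPA10 and CLIPA17 were called on no day, and no CLIPA gene was called on day 20 in the fit of all groups with TMM. On that day DESeq2 called CLIPA1 (1.60, FDR p-value 0.0393) and CLIPA15 (0.38, 0.0362) higher, and so did edgeR for CLIPA1 on the day 20 groups alone (1.58, 0.00836) and for CLIPA15 with upper-quartile scaling (0.46, 0.0357).

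CLIPB proteases are catalytic and include the enzymes that cleave PPO and Spätzle. Of 29 CLIPB genes 27 were tested, and on day 3 PBM 12 (44.4%) were called higher and 5 (18.5%) lower in BF ovaries. Of all tested genes 32.3% were called higher and 32.6% lower. The direction split by level. All 4 of the CLIPB genes above 10 RPKM that were called fell, while the 12 genes that rose had mean levels of at most 1.76 RPKM. The largest rise of all members was that of CLIPB46 (chromosome 3, 82887794 to 82897028). It had 0.594, 3.86, 3.45 and 7.89 CPM in BF ovaries, against 0.120, 0.0208 and 0.217 CPM in SF ovaries. No BF library fell into the SF range, although BF replicate 1 came close to it, and the SF values rest on 18 read pairs in all. The log2 fold change was 5.01 (SE 0.74, FDR p-value 1.5e-05), and 5.71 without SF replicate 4.

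CLIPB31 (chromosome 1, 126282162 to 126283649) gave a tighter response, with 6.98, 7.07, 4.90 and 7.93 CPM in BF and 0.720, 0.686 and 0.454 CPM in SF ovaries of day 3 (log2 fold change 3.43, SE 0.30, FDR p-value 2.1e-08). Its lowest BF library was several times its highest SF library. On day 10 CLIPB31 was still called higher, at 1.54, 0.799 and 1.19 CPM in BF and 0.633, 0.618 and 0.416 CPM in SF ovaries (log2 fold change 1.08, FDR p-value 0.0184), but not without BF replicate 1 (0.0858) or SF replicate 4 (0.0756). On day 20 the log2 fold change was 0.72 with an FDR p-value of 0.0988. The other CLIPB genes called higher on day 3 were CLIPB41 (log2 fold change 2.07), CLIPB27 (2.40), CLIPB15 (1.79), CLIPB35 (1.47), CLIPB39 (1.28), CLIPB25 (1.27), CLIPB19 (1.07), CLIPB42 (0.86), CLIPB33 (0.74) and CLIPB45 (0.72). CLIPB46, CLIPB31 and CLIPB41 kept their calls without any 1 library. Each of the other 9 lost its call when some library was left out. These were BF replicate 3 for CLIPB15, CLIPB19 and CLIPB45, BF replicate 4 for those genes and for CLIPB33, CLIPB35 and CLIPB42, and, for all 9, SF replicate 2, where the FDR p-values ran from 0.0537 to 0.153. CLIPB33 and CLIPB42 also depended on BF replicate 2, and CLIPB33 on BF replicate 1. SF replicate 1 decided CLIPB27, CLIPB35 and CLIPB42, and SF replicate 4 decided CLIPB15, CLIPB19, CLIPB33, CLIPB35, CLIPB42 and CLIPB45. With the day 3 groups alone in the fit, CLIPB15, CLIPB33, CLIPB35, CLIPB39, CLIPB42 and CLIPB45 were not called either (FDR p-values 0.0707 to 0.11). When single libraries were left out the FDR p-values reached at most 0.335, for CLIPB35 without BF replicate 4, where its log2 fold change was 0.51.

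The falls among CLIPB genes were smaller and involved the abundant members. CLIPB1 had 14.98, 13.7, 17.6 and 18.8 CPM in BF and 22.9, 23.2 and 25.0 CPM in SF ovaries of day 3, with no overlap (log2 fold change -0.54, SE 0.10, FDR p-value 1.11e-04). CLIPB5 was at 39.6, 37.0, 42.4 and 35.9 CPM in BF and 51.9, 66.4 and 46.3 CPM in SF ovaries (log2 fold change -0.50, SE 0.13, FDR p-value 0.00204). For CLIPB13A, the most abundant CLIP gene, the values of 103, 103, 121 and 109.8 CPM in BF and 146, 142 and 114 CPM in SF ovaries overlapped, and the log2 fold change of -0.30 (FDR p-value 0.0063) fell short with exon reads (0.222) and with upper-quartile scaling (0.077). CLIPB6 fell by 0.36 on the log2 scale and fell short with exon reads (FDR p-value 0.149). CLIPB34, the fifth CLIPB gene above 10 RPKM, was not called.

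CLIPB24 (chromosome 2, 305740516 to 305752630) turned round between days. On day 3 it had 1.55, 1.52, 1.69 and 1.53 CPM in BF and 4.36, 3.22 and 3.00 CPM in SF ovaries, and the log2 change was -1.16 (SE 0.18, FDR p-value 1.56e-05). On day 20 it had 6.18, 7.07 and 5.82 CPM in BF and 3.76, 3.78 and 2.94 CPM in SF ovaries, where its log2 fold change was 0.86 (SE 0.18, FDR p-value 0.00379). The groups did not overlap on either day, while the SF libraries of days 3 and 20 overlapped. The difference of the effect between day 20 and day 3 was 2.02 on the log2 scale (FDR p-value 1.2e-05). The day 10 values of 7.32, 6.52 and 4.68 CPM in BF and 4.42, 4.61 and 3.81 CPM in SF ovaries gave a log2 fold change of 0.53 that missed the threshold (FDR p-value 0.0511), although DESeq2 called it (0.0229), as did edgeR without BF replicate 4 (0.0165).

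CLIPB45 was called higher in BF ovaries on all 3 days in the main fit, though not on day 3 with the replicate block. It had 1.51, 2.59, 2.69 and 4.87 CPM in BF and 2.18, 1.68 and 1.46 CPM in SF ovaries on day 3, where the groups overlapped (log2 fold change 0.72, FDR p-value 0.0367, but 0.11 with the day 3 groups alone in the fit). It had 2.75, 4.04 and 2.92 CPM in BF and 1.29, 1.70 and 1.59 CPM in SF ovaries on day 10 (1.08, FDR p-value 0.0201), and 4.64, 3.82 and 3.49 CPM in BF and 2.15, 1.97 and 1.85 CPM in SF ovaries on day 20 (1.00, FDR p-value 0.0257). The groups of days 10 and 20 lay apart. The day 10 call ended without BF replicate 2 (0.11) or SF replicate 1 (0.078), and the day 20 call without any of 5 libraries, all but BF replicate 4, with FDR p-values between 0.0531 and 0.0802. CLIPB33 was the third CLIPB gene called on day 20, at 0.483, 0.621 and 0.451 CPM in BF and 0.184, 0.261 and 0.305 CPM in SF ovaries (log2 fold change 1.05, FDR p-value 0.0425). Without any 1 of the 6 libraries, and in DESeq2 (0.0613), it was not called, with FDR p-values up to 0.146. CLIPB13B, CLIPB16, CLIPB21, CLIPB28, CLIPB29, CLIPB37, CLIPB38, CLIPB43 and CLIPB44 were called on no day.

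**Figure D2:**
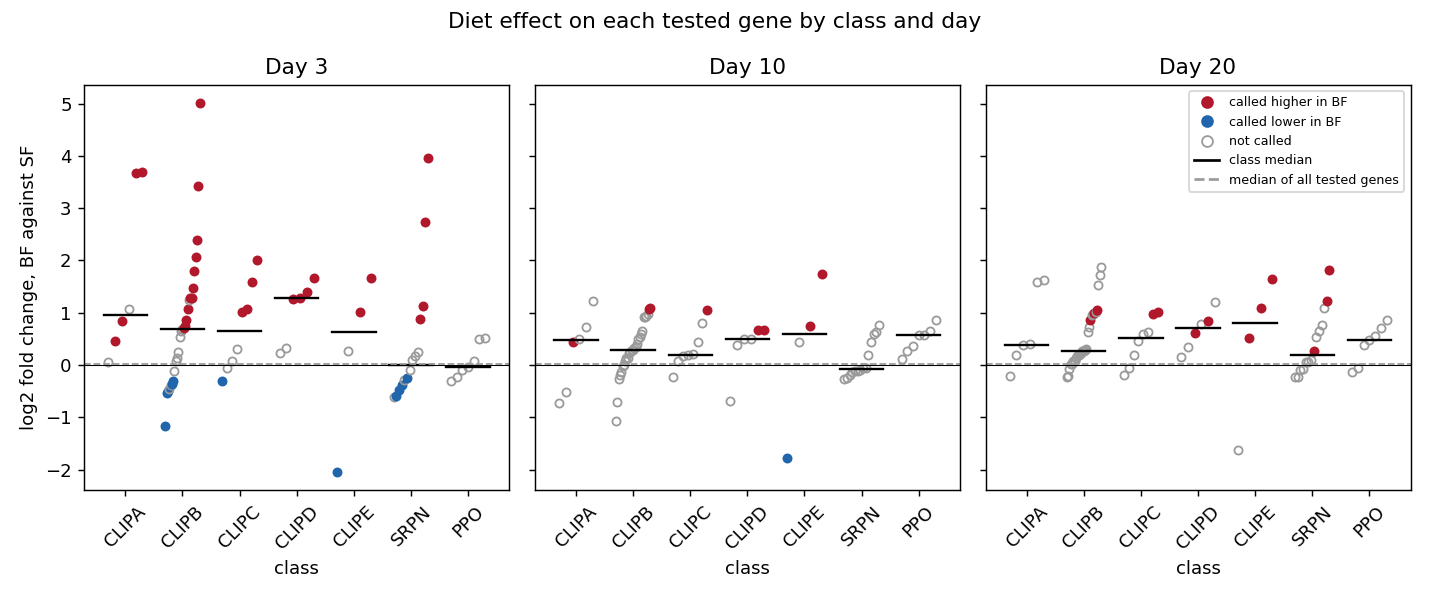
Log2 fold change of BF against SF ovaries for each tested gene, by class (horizontal axis) and day (panels), with filled red points for genes called higher in BF, filled blue points for genes called lower and open grey points for genes not called. Black bars are class medians and the dashed line is the median of all 13904 tested genes, which is 0.02 on each day. The longest upper tail is that of CLIPB on day 3, up to 5.01, and no PPO gene is filled on any day.

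CLIPC proteases act upstream of the CLIPB enzymes and activate them. On day 3 PBM 4 of the 8 CLIPC genes were called higher and 1 lower in BF ovaries, beside 32.3% and 32.6% of all tested genes. CLIPC1 had 1.76, 2.00, 2.15 and 1.77 CPM in BF and 0.660, 0.645 and 0.612 CPM in SF ovaries, with every BF library far above the highest SF library (log2 fold change 1.58, SE 0.20, FDR p-value 2.13e-06). CLIPC16 (chromosome 1, 92986613 to 92988174) had 27.7, 24.3, 16.5 and 27.7 CPM in BF and 6.72, 5.12 and 6.18 CPM in SF ovaries (log2 fold change 2.00, SE 0.28, FDR p-value 8.22e-06). None of its reads were unique to it, so its values may belong to another gene with the same sequence and are uncertain. CLIPC13 (1.07) and CLIPC12 (1.01) rose as well, the second of these not in exon reads (FDR p-value 0.0886). CLIPC3, an abundant member, fell to 50.2, 46.0, 54.5 and 52.1 CPM in BF ovaries, against 66.8, 62.0 and 60.3 CPM in SF ovaries, with no overlap (log2 fold change -0.31, FDR p-value 0.00189), but not in exon reads (0.11). CLIPC2, at 55.2, 59.2, 63.4 and 51.5 CPM in BF and 59.7, 65.1 and 54.5 CPM in SF ovaries, differed by -0.06 on the log2 scale (SE 0.11) and was not called on any day.

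CLIPC11 was called on the later days and not on day 3. On day 3 it had 1.57, 1.24, 1.65 and 0.948 CPM in BF and 1.22, 0.998 and 1.07 CPM in SF ovaries, which overlapped (log2 fold change 0.31, FDR p-value 0.321). On day 10 it had 2.12, 2.64 and 2.56 CPM in BF and 1.04, 1.61 and 0.878 CPM in SF ovaries (1.05, FDR p-value 0.0145), and on day 20 2.40, 2.76 and 2.07 CPM in BF and 1.71, 0.950 and 0.916 CPM in SF ovaries (1.01, FDR p-value 0.0162). The groups of both later days lay apart, although the change of its effect between days 3 and 10 was not called (difference 0.74, FDR p-value 0.142). The day 10 call ended without BF replicate 2 or SF replicate 1 or 4 (FDR p-values 0.0596 to 0.0655) and the day 20 call without BF replicate 2 or SF replicate 2 or 4 (0.0656 to 0.0756). CLIPC13 was called higher on day 20 at 0.947, 0.737 and 0.656 CPM in BF and 0.477, 0.332 and 0.371 CPM in SF ovaries (log2 fold change 0.98, FDR p-value 0.0311). That call ended without BF replicate 1 or 2 or SF replicate 2 or 4 (0.0626 to 0.11) and in exon reads (0.101). CLIPC5B was called on no day.

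CLIPD genes had the highest class median on day 3 (1.28), with 4 of 6 called higher and 0 lower. All CLIPD genes had means at or below 10 RPKM. Of all tested genes at that level 47.8% were called higher and 8.66% lower, with a median of 0.67. Among the 4 called genes, CLIPD3, CLIPD9 and CLIPD10 had reads almost only on introns. CLIPD6 (chromosome 3, 177013915 to 177037009) rested mostly on exon reads and was called higher on every day. It had 9.63, 9.82, 7.63 and 9.59 CPM in BF and 4.36, 3.08 and 3.83 CPM in SF ovaries on day 3 (log2 fold change 1.29, SE 0.15, FDR p-value 4.93e-07). On day 10 the values were 4.77, 5.90 and 4.78 CPM in BF and 3.52, 3.16 and 3.00 CPM in SF ovaries (0.67, SE 0.15, FDR p-value 0.00607), and on day 20 6.05, 5.69 and 5.95 CPM in BF and 3.30, 3.13 and 3.42 CPM in SF ovaries (0.84, SE 0.15, FDR p-value 0.00144). The groups lay apart on all 3 days, and no single library ended any of these calls.

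The other CLIPD calls came from genes whose reads fell almost only on introns. Introns held 94.9% of the reads of CLIPD3, 96.2% of CLIPD9 and 97.0% of CLIPD10, and the exon levels of these genes averaged 0.0324, 0.0187 and 0.0394 RPKM. CLIPD10 had 15.3, 14.1, 18.7 and 13.2 CPM of gene reads in BF and 7.48, 5.93 and 5.72 CPM in SF ovaries of day 3 (log2 fold change 1.26, FDR p-value 7.22e-07). CLIPD9 had 3.84, 4.00, 4.26 and 3.99 CPM in BF and 1.44, 0.873 and 1.48 CPM in SF ovaries (1.67, FDR p-value 1.35e-05), and CLIPD3 had 4.31, 3.55, 3.61 and 4.10 CPM in BF and 1.299, 1.21 and 1.89 CPM in SF ovaries (1.41, FDR p-value 2.74e-05). The BF libraries of all 3 genes lay above their SF libraries. Exon reads of CLIPD3 and CLIPD9 were too few to be tested, and those of CLIPD10 gave a log2 fold change of 1.06 at an FDR p-value of 0.04999. On day 10 CLIPD10 was called higher (0.67, FDR p-value 0.00667) but not in exon reads (0.457). On day 20 it was called higher (0.62, FDR p-value 0.0104), while exon reads gave a log2 fold change of -0.30 (0.719), and without SF replicate 2 the FDR p-value was 0.0518. The intron share of all gene reads was 11.9% ± 1.92 (SD, n = 4) over the BF libraries of day 3 and 4.84% ± 0.751 (SD, n = 3) over the SF libraries of that day, and its part in these results was not tested. CLIPD2, at 2.59, 3.15, 3.19 and 2.37 CPM in BF and 2.48, 1.497 and 2.74 CPM in SF ovaries of day 3, and CLIPD1 were called on no day.

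The 4 CLIPE genes moved in both directions. CLIPE8 had 2.50, 8.73, 10.3 and 9.89 CPM in BF and 3.10, 1.71 and 2.59 CPM in SF ovaries on day 3, where BF replicate 1 lay within the SF range and the other 3 far above it (log2 fold change 1.67, SE 0.35, FDR p-value 4.59e-04). On day 20 it had 4.12, 3.52 and 5.08 CPM in BF and 1.21, 1.38 and 1.46 CPM in SF ovaries, without overlap (1.65, SE 0.38, FDR p-value 0.00573). On day 10 it was not called (0.43, FDR p-value 0.439). The largest fall of all members was that of CLIPE9 (chromosome 2, 372264358 to 372292559). It had 1.57, 1.83, 0.956 and 1.42 CPM in BF and 1.88, 10.96 and 4.93 CPM in SF ovaries of day 3, where SF replicate 1 came close to the BF range (log2 fold change -2.04, SE 0.54, FDR p-value 0.00336). The log2 fold change was -1.28 without SF replicate 2. On day 10 CLIPE9 had 1.02, 1.31 and 2.28 CPM in BF and 3.88, 7.79 and 4.16 CPM in SF ovaries and was the 1 member called lower (-1.78, FDR p-value 0.0436). That call ended without any of 5 libraries, all but BF replicate 4 (FDR p-values 0.0569 to 0.155), in exon reads (0.0546) and with upper-quartile scaling (0.0532). On day 20 the values of 1.73, 4.00 and 0.759 CPM in BF and 5.97, 7.98 and 6.04 CPM in SF ovaries did not overlap but missed the threshold (-1.63, FDR p-value 0.0546). DESeq2 called this fall (FDR p-value 0.0127), as did edgeR without BF replicate 2 (-2.39, 0.022).

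CLIPE10 was called higher on all 3 days, with its largest log2 fold change on day 10, although no change of its effect between days was called. It had 1.55, 2.93, 2.13 and 2.11 CPM in BF and 0.760, 1.56 and 0.908 CPM in SF ovaries on day 3 (log2 fold change 1.02, FDR p-value 0.0128), where the lowest BF library fell just short of the highest SF library. On day 10 the values were 2.81, 4.24 and 2.06 CPM in BF and 0.633, 1.27 and 0.809 CPM in SF ovaries (1.74, SE 0.36, FDR p-value 0.00332), and on day 20 2.67, 1.91 and 1.29 CPM in BF and 0.845, 1.04 and 0.872 CPM in SF ovaries (1.09, FDR p-value 0.0358). No single library ended the day 10 call, whereas the day 3 call ended without SF replicate 1 (0.0821) or 4 (0.0626) and the day 20 call without any library but BF replicate 4 (0.0679 to 0.152). CLIPE12, the most abundant CLIPE gene, had 25.4, 26.0 and 23.8 CPM in BF and 16.5, 15.4 and 12.9 CPM in SF ovaries on day 10 (0.75, SE 0.13, FDR p-value 0.00116). On day 20 it had 14.1, 19.01 and 18.4 CPM in BF and 11.5, 11.8 and 12.7 CPM in SF ovaries (0.52, FDR p-value 0.00852). BF and SF libraries lay apart on both days, and on day 3 the gene missed the threshold (0.27, FDR p-value 0.0547), but not without BF replicate 4 (0.0242) or SF replicate 4 (0.0476).

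Serpins are the inhibitors of these proteases. Of 19 SRPN genes 14 were tested, and on day 3 PBM 4 (28.6%) were called higher and 4 (28.6%) lower in BF ovaries. Of all tested genes 32.3% were called higher and 32.6% lower. SRPN6 (chromosome 2, 305524527 to 305541515) changed most. Its *Anopheles* counterpart is known as a gene induced when malaria parasites cross the midgut. It had 128, 95.3, 50.0 and 122 CPM in BF ovaries of day 3, against 4.46, 8.17 and 6.37 CPM in SF ovaries, so that the lowest BF library was several times the highest SF library. The log2 fold change was 3.96 (SE 0.41, FDR p-value 6.73e-07), and the mean level was 40.6 ± 13.6 RPKM in BF (SD, n = 4) and 2.77 ± 0.795 RPKM in SF ovaries (SD, n = 3). SRPN6 thus joined the 6 serpins that were above 10 RPKM in day 3 SF ovaries. On day 10 it had 8.69, 7.68 and 5.42 CPM in BF and 4.10, 4.85 and 5.08 CPM in SF ovaries, which lay apart but were not called (0.64, FDR p-value 0.288). On day 20 the values of 14.3, 4.35 and 9.70 CPM in BF and 3.36, 4.68 and 5.45 CPM in SF ovaries overlapped (1.09, FDR p-value 0.0693). It was called higher on day 20 by DESeq2 (FDR p-value 0.0366) and without BF replicate 2 (1.44, 0.0209).

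SRPN16 (chromosome 2, 305604250 to 305606282), a gene with 1 exon, had 3.03, 2.51, 3.59 and 4.23 CPM in BF and 0.640, 0.457 and 0.395 CPM in SF ovaries of day 3 (log2 fold change 2.74, SE 0.40, FDR p-value 1.04e-05). On day 20 it was also called higher, with 2.30, 1.496 and 1.35 CPM in BF and 0.532, 0.451 and 0.480 CPM in SF ovaries (1.81, SE 0.41, FDR p-value 0.00558). In between, on day 10, the groups overlapped at 1.06, 0.976 and 0.927 CPM in BF and 0.745, 0.169 and 1.06 CPM in SF ovaries (0.60, FDR p-value 0.319). The change of the SRPN16 effect was called between days 3 and 10, but not between days 10 and 20 or days 3 and 20. SRPN20 (1.13) and SRPN19 (0.89) were the other serpins called higher on day 3, and SRPN20 was not called without BF replicate 4 (FDR p-value 0.07).

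Abundant serpins went the other way on day 3. SRPN5 had 45.2, 48.6, 50.4 and 47.6 CPM in BF and 80.1, 70.6 and 67.6 CPM in SF ovaries (log2 fold change -0.60, SE 0.069, FDR p-value 6.33e-07). SRPN3 (chromosome 2, 132297829 to 132307971) had 89.3, 83.3, 82.8 and 89.5 CPM in BF and 128, 112 and 122 CPM in SF ovaries (-0.48, SE 0.068, FDR p-value 6.54e-06), and SRPN4 had 137, 141, 144 and 164 CPM in BF and 220.4, 180.3 and 171 CPM in SF ovaries (-0.38, SE 0.077, FDR p-value 3.16e-04). For all 3 serpins the BF libraries lay below the SF libraries, and no single library, scaling or use of exon reads ended the call. SRPN8 was called lower as well (-0.25, FDR p-value 0.0267), but only 0.617% of its reads were unique, and its unique reads gave a log2 fold change of 2.30, so its direction is uncertain. SRPN9, the most abundant member, had 225, 242, 231 and 266 CPM in BF and 265, 274 and 233 CPM in SF ovaries, which overlapped (-0.09, SE 0.067, FDR p-value 0.221). It was called lower without SF replicate 4 (-0.20, 0.0183). SRPN10, the third most abundant serpin, was not called.

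On day 20 SRPN3 had turned round like CLIPB24, at 136, 151 and 162 CPM in BF and 132, 119 and 121 CPM in SF ovaries (log2 fold change 0.27, SE 0.073, FDR p-value 0.0135). The groups lay apart, and the call ended without BF replicate 4 (0.0555) or SF replicate 2 (0.0559). The difference of its effect between day 20 and day 3 was 0.75 on the log2 scale (FDR p-value 1.77e-05). CLIPB24 and SRPN3 were the 2 members called in opposite directions on different days. SRPN14, a low serpin, had 0.557, 0.852 and 0.718 CPM in BF and 0.294, 0.214 and 0.393 CPM in SF ovaries of day 20 (1.23, FDR p-value 0.0191), and lost its call without BF replicate 2 or SF replicate 1 or 2 (0.0556 to 0.0839). On day 3 it stood at -0.62 on the log2 scale (FDR p-value 0.112), and it was called lower without SF replicate 1 (-0.85, 0.0488). In the main fit no serpin was called on day 10, where 1 had an unadjusted p under 0.05 with a higher and 3 with a lower value in BF ovaries. DESeq2 called SRPN9 lower (-0.19, 0.0478), as did edgeR on the day 10 groups alone (-0.19, 0.0422). SRPN19 (0.76, FDR p-value 0.0554) was called higher on day 10 with upper-quartile scaling (0.0386), on unique reads (0.0433), with the replicate block (0.0416) and without SF replicate 4 (0.0429). On day 20 SRPN19 missed the threshold in the main fit (0.78). It was called higher on that day with upper-quartile scaling (0.0422), with the replicate block (0.0433), without BF replicate 4 (0.0395) and without SF replicate 2 (0.028). SRPN12, SRPN17 and SRPN26 were called on no day.

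**Figure D3:**
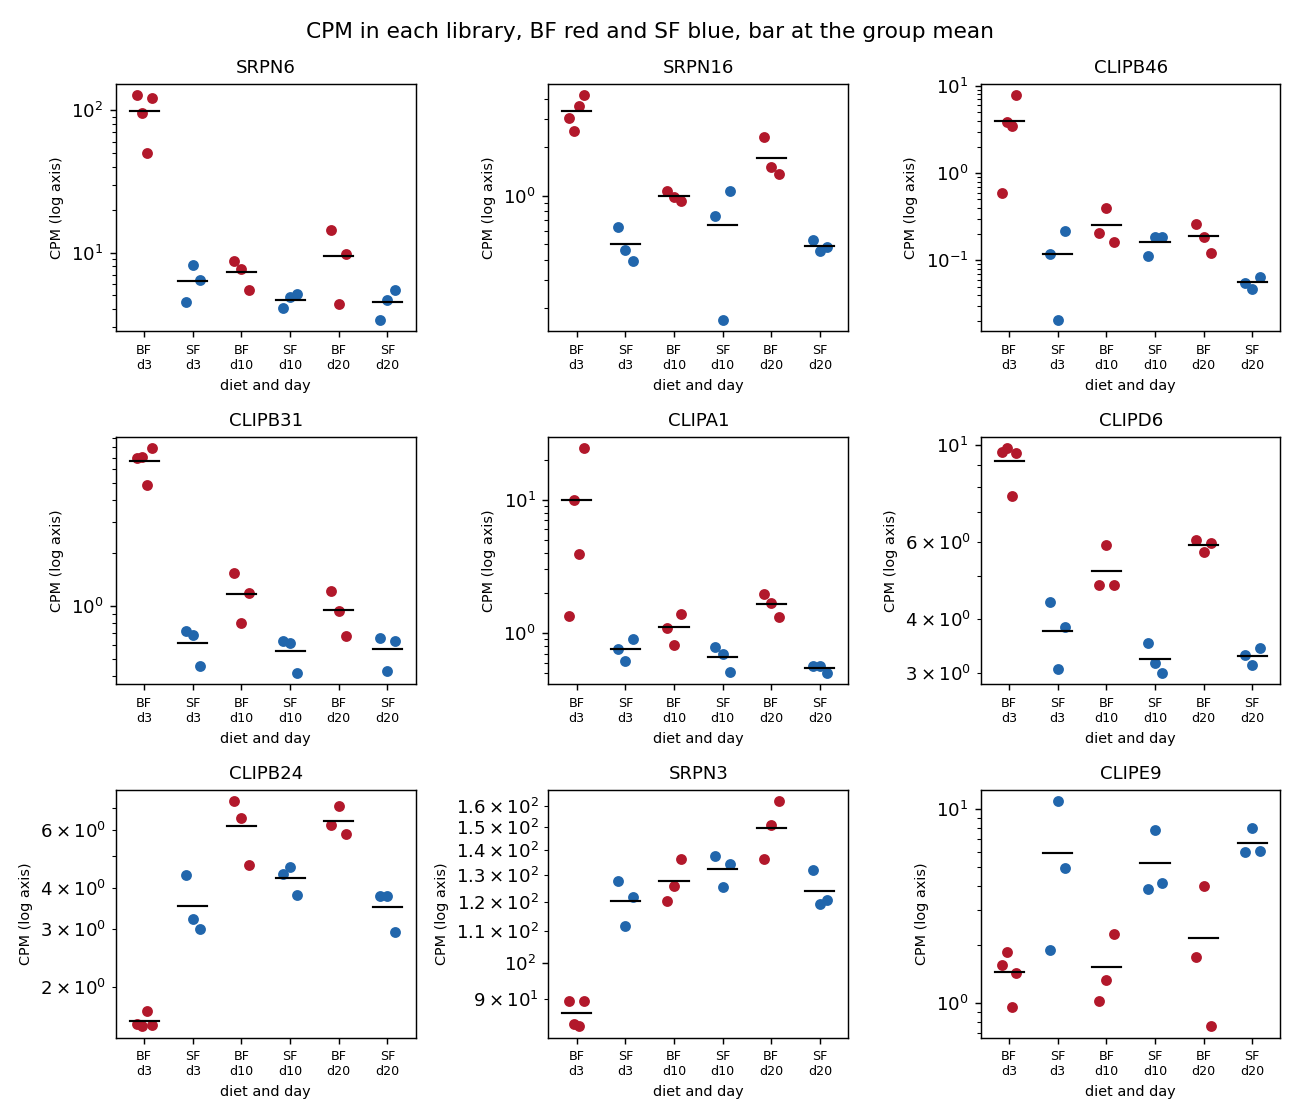
CPM on a log axis of 9 members in each library, by diet and day, with BF libraries in red, SF libraries in blue and a bar at the mean of each group. SRPN6 lies between 50.0 and 128 CPM in day 3 BF ovaries and between 3.36 and 14.3 CPM in all other libraries, CLIPD6 is higher in BF on each day, CLIPB24 and SRPN3 are below SF on day 3 and above SF on day 20, and CLIPE9 is lower in BF.

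None of the 7 PPO genes was called on any day by edgeR or by DESeq2. An unadjusted p under 0.05 was reached by 0 of them on day 3, by 1 on day 10 and by 1 on day 20. The class median log2 fold change was -0.04 on day 3, 0.57 on day 10 and 0.48 on day 20. PPO6, the most abundant, had 3.16, 4.25, 4.10 and 3.62 CPM in BF and 3.36, 2.43 and 5.01 CPM in SF ovaries of day 3 (log2 fold change 0.07, SE 0.27). PPO8 had 1.29, 2.11, 1.35 and 1.62 CPM in BF and 0.960, 2.08 and 1.86 CPM in SF ovaries (-0.04, SE 0.29). The groups of both genes overlapped. On day 10 PPO8 had 1.75, 2.11 and 1.67 CPM in BF and 1.04, 1.55 and 1.09 CPM in SF ovaries, which lay apart (0.58, FDR p-value 0.191). PPO4 was higher in all BF libraries on day 20, at 0.464, 0.552 and 0.369 CPM in BF and 0.239, 0.190 and 0.327 CPM in SF ovaries (0.86, FDR p-value 0.143). On day 10 the log2 fold change of PPO4 was 0.87, and it was called in 1 case, without SF replicate 1 (1.39, FDR p-value 0.0368). The remaining PPO genes had log2 fold changes on day 3 of -0.30 (PPO3), -0.22 (PPO5), -0.09 (PPO7) and 0.50 (PPO10). Their levels in day 3 BF ovaries lay between 0.141 and 1.25 CPM, against 0.118 to 1.80 CPM in day 3 SF ovaries. Summed over the 7 genes, day 3 BF ovaries held 1.71 ± 0.214 RPKM (SD, n = 4) and day 3 SF ovaries 2.26 ± 0.656 RPKM (SD, n = 3), which overlapped. On day 10 the sums lay apart, at 2.21 to 2.51 RPKM in BF and 1.59 to 1.71 RPKM in SF libraries. All 7 log2 fold changes of that day were positive. On day 20 the sums overlapped, at 2.05 to 2.75 RPKM in BF and 1.84 to 2.37 RPKM in SF libraries. Differences between the sums were not tested.

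The direction of the day 3 effect followed the level of the gene, among the members as among all genes. Of the 14 members with a mean above 10 RPKM, 1 (SRPN6) was called higher and 9 lower in BF ovaries, with a median log2 fold change of -0.30. SRPN8, whose direction is uncertain, is among the 9. SRPN6 passed 10 RPKM only through day 3 BF, the group in which it rose. It had 21.6 to 50.8 RPKM there and 1.42 to 6.33 RPKM in all other libraries. Of the 6264 tested genes above the same level, 13.5% were called higher and 61.8% lower, with a median of -0.30. Of the 58 tested members at or below 10 RPKM, 29 were called higher and 2 (CLIPB24 and CLIPE9) lower, with a median of 0.73, while 47.8% of the 7640 tested genes of that level were called higher and 8.66% lower, with a median of 0.67. Spearman's rho between level and day 3 log2 fold change was -0.40 over the 72 members and -0.54 over the 13904 genes, both as a description across genes measured in the same libraries. All genes thus showed a split by level of like size.

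**Figure D4:**
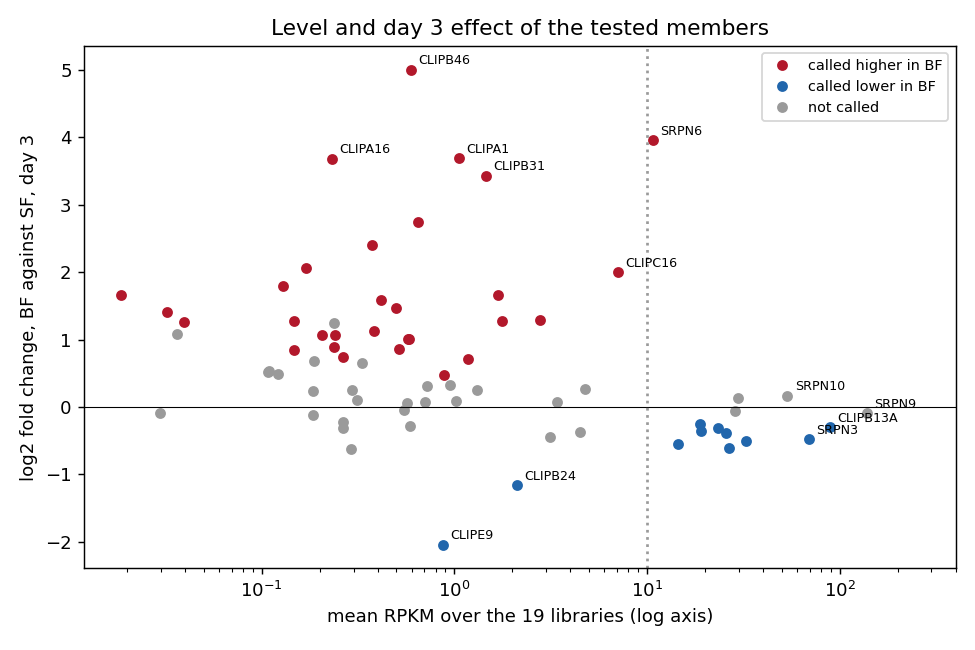
Mean RPKM over the 19 libraries (log axis) and log2 fold change of BF against SF ovaries on day 3 for the 72 tested members, with red points for genes called higher in BF, blue points for genes called lower and grey points for genes not called. Right of the dotted line at 10 RPKM 9 genes are blue, among them SRPN8, whose unique reads gave 2.30, and SRPN6 is red. SRPN6 lies right of the line only through its day 3 BF values. Left of the line 29 are red and CLIPB24 and CLIPE9 are blue.

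Day 3 results also depended in part on intron reads. Of the 30 members called higher on gene reads, 24 were called higher on exon reads alone, 4 were not (CLIPA3, CLIPA15, CLIPB25 and CLIPC12) and 2 could not be tested (CLIPD3 and CLIPD9). Of the 11 called lower, 7 were called lower on exon reads and 4 were not (CLIPB6, CLIPB13A, CLIPC3 and SRPN8). CLIPB34 and CLIPE12 were called higher on exon reads only. On day 10, 6 of the 8 higher calls and 0 of the 1 lower call remained on exon reads, and on day 20, 10 of the 13 higher calls. The reads of SRPN6, SRPN16, CLIPA1, CLIPA16, CLIPB31 and CLIPE8 fell mostly on exons, with intron shares of 10.2%, 0.240%, 1.27%, 0%, 4.46% and 3.34%, and all 6 genes were called higher on day 3 on exon reads.

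The change of the diet effect between days was tested as an interaction. Between day 10 and day 3 it was called for 19 of the 72 members, beside 36.8% of all tested genes. The effect was lower on day 10 for 15 members (20.8%) and higher for 4 (5.56%), namely CLIPB24, CLIPE12, SRPN3 and SRPN5. It was lower for 17.3% and higher for 19.4% of all tested genes. Among tested members at or below 10 RPKM it was lower for 22.4% and higher for 3.45%. The shares of tested genes at that level were 22.997% and 4.202%. Between day 20 and day 3 a change of the effect was called for 13 members, beside 38.8% of all tested genes. The effect was lower on day 20 for 8 members (11.1%) and higher for 5 (6.94%), beside 18.9% and 19.9% of all tested genes. At or below 10 RPKM it was lower for 12.1% and higher for 3.45% of tested members, beside 23.9% and 4.83% of tested genes. Both tests use the same day 3 libraries. SRPN6 had the steepest return among serpins, with differences of -3.32 for day 10 (FDR p-value 3.45e-04) and -2.88 for day 20 (FDR p-value 7.87e-04). The corresponding values of CLIPB31 were -2.36 and -2.71. The effects of SRPN5 moved back towards SF, with differences of 0.48 and 0.51. Between day 20 and day 10 edgeR called 0 members and 0% of all tested genes. An unadjusted p under 0.05 went with 6 members, all with a higher effect on day 20, and DESeq2 called 0 members. Without SF day 3 replicate 2 the count for day 10 against day 3 was 12. Of the 19 differences for day 10, 10 held without any 1 library, and of the 13 for day 20, 11 did.

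Of the members called higher, 20 were called on day 3 only. CLIPB45, CLIPD6, CLIPD10 and CLIPE10 were called higher on all 3 days, and CLIPC11 and CLIPE12 on days 10 and 20 but not on day 3. Among the 13 higher calls of day 20, 5 (CLIPB24, CLIPD6, CLIPE8, CLIPE12 and SRPN16) held without any 1 library, and the count was 6 without SF replicate 2 and 8 without BF replicate 2 or SF replicate 4. Among the 30 higher calls of day 3, 18 held without any 1 library.

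Ageing of SF ovaries was followed by setting day 20 against day 3. In SF ovaries of day 20, 3 members (4.17%) were called higher and 6 (8.33%) lower than in SF ovaries of day 3. The shares of all tested genes were 10.6% and 7.03%. Above 10 RPKM, 21.4% of tested members were called higher and 0% lower, beside 21.8% and 4.502% of tested genes. At or below 10 RPKM, 0% of tested members were called higher and 10.3% lower, beside 1.32% and 9.11% of tested genes. SRPN9 had 344, 355 and 338 CPM in day 20 SF and 265, 274 and 233 CPM in day 3 SF ovaries, without overlap (log2 fold change 0.43, FDR p-value 0.00136). CLIPC3 (0.39) and SRPN4 (0.27) rose as well. CLIPB42 fell to 0.404, 0.166 and 0.218 CPM in day 20 SF ovaries, against 1.12, 0.936 and 0.849 CPM in day 3 SF ovaries (-1.85, FDR p-value 0.00639). SRPN19 (-1.10), PPO5 (-1.05), CLIPC13 (-1.01), CLIPD10 (-0.73) and CLIPE12 (-0.42) were lower too. PPO5, at 0.514, 0.784 and 0.502 CPM in day 20 SF and 0.920, 0.998 and 1.80 CPM in day 3 SF ovaries, was the 1 PPO gene called in any comparison, and it was not called without SF day 3 replicate 4 (FDR p-value 0.214) or without SF day 20 replicate 1 (0.124) or 4 (0.109). Only SRPN9, CLIPB42 and CLIPD10 were called without any 1 library, and CLIPD10, with its reads on introns, was not called on exon reads (-0.22, FDR p-value 0.807). Without SF day 20 replicate 1 the counts were 1 higher and 2 lower, and without SF day 3 replicate 4 they were 2 higher and 3 lower. CLIPC3 was lost without SF day 20 replicate 1 (FDR p-value 0.0516), and SRPN19 without SF day 20 replicate 1 (0.0644) or 4 (0.05004). CLIPE12 was lost without SF day 3 replicate 4 or SF day 20 replicate 1 or 2 (0.078 to 0.133), SRPN4 without any library but SF day 3 replicate 1 (0.073 to 0.161), and CLIPC13 without any but SF day 3 replicate 2 (0.051 to 0.17). Exon reads gave 3 higher and 2 lower calls, and upper-quartile scaling 2 and 8. Under that scaling 27.7% of all calls between these groups were higher, against 60.0% with TMM.

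Many members lie beside each other in the genome. With gaps of at most 500 kb on the AaegL5.0 assembly, 52 of the 79 genes fell into 17 blocks of 2 to 7 members. The largest block, on chromosome 2 from 305495966 to 305919833, holds CLIPE10, SRPN6, SRPN16, CLIPB25, CLIPB24, SRPN5 and SRPN4 in this order. On day 3 the first 4 of them were called higher in BF ovaries, with log2 fold changes of 1.02, 3.96, 2.74 and 1.27, and the last 3 lower, with -1.16, -0.60 and -0.38. CLIPB25 was not called on exon reads (FDR p-value 0.276) or without SF replicate 2 (0.0537), and CLIPE10 was not called without SF replicate 1 or 4 (up to 0.0821). CLIPC12, CLIPC16 and CLIPC13 on chromosome 1 were all called higher, with log2 fold changes between 1.01 and 2.00, and so were CLIPB31 and CLIPB42. These genes had means at or below 10 RPKM, where 47.8% of all tested genes were called higher. None of the reads of CLIPC16 were unique to it, and CLIPC12 was not called on exon reads (FDR p-value 0.0886). CLIPB42 lost its call without any of 5 libraries (up to 0.214). A block of 6 CLIPB genes on chromosome 3 (CLIPB6, CLIPB1, CLIPB35, CLIPB19, CLIPB34 and CLIPB33) held 3 genes called higher and 2 called lower. Its 3 abundant members were the ones that fell or were not called, and each of the 3 higher calls ended when some library was left out. The 4 genes PPO4, PPO8, PPO7 and PPO5 lie within 81.0 kb on chromosome 2.

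**Figure D5:**
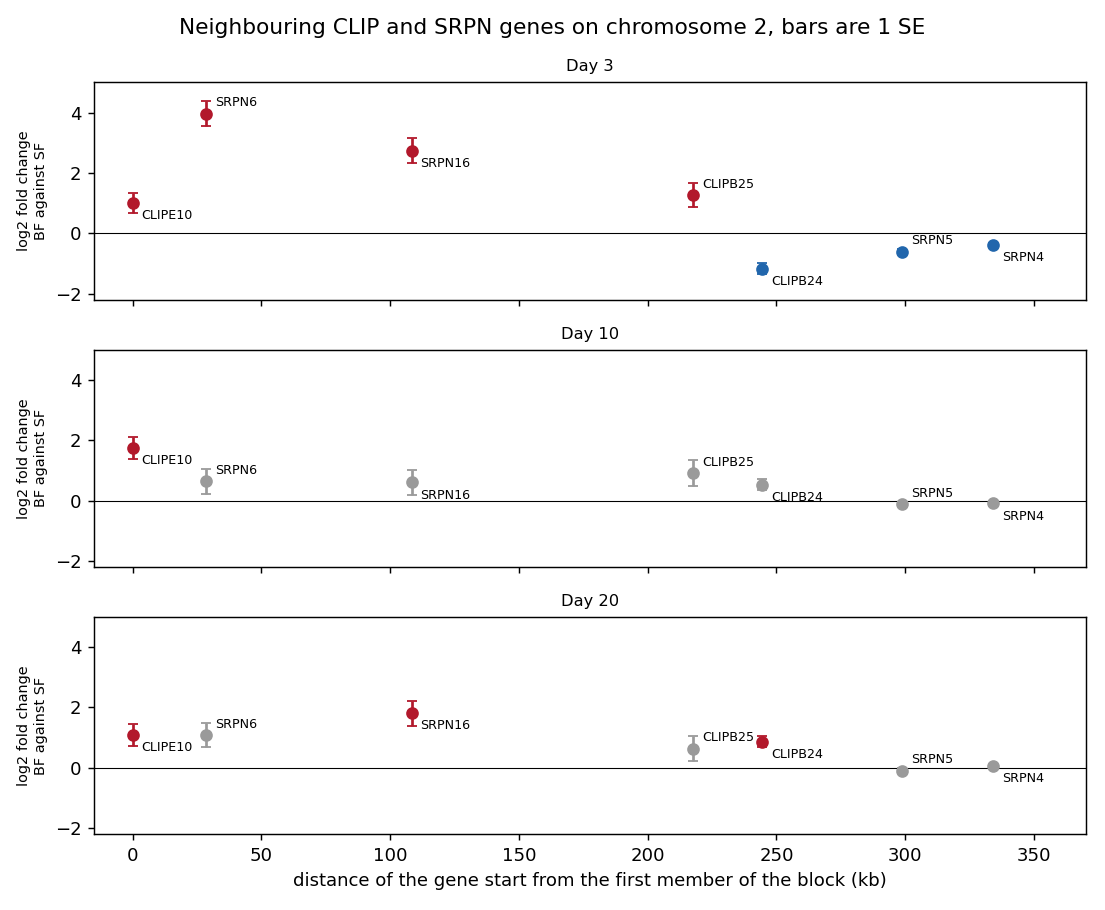
Log2 fold change of BF against SF ovaries (vertical axis, bars are 1 SE) for the 7 members of the largest block on each day, placed by the distance of their start from that of CLIPE10 in kb, with red points for genes called higher in BF, blue points for genes called lower and grey points for genes not called. On day 3 the 4 genes on the left lie above 0 and the 3 on the right below it, and on day 20 CLIPB24 lies above 0 at 0.86.

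The genes around the cascade were counted by symbol. Of 6 tested Spätzle genes (SPZ) 5 were called higher on day 3, as were 6 of 8 TOLL receptor genes, 4 of 5 tested GNBP genes and 3 of 5 tested PGRP genes, and 0 of them were called lower. All of these tested genes had a mean at or below 10 RPKM, a level at which 47.8% of all tested genes were called higher, and 32.3% of tested genes of any level were. GNBP and PGRP proteins bind microbial sugars and peptidoglycan and start the cascade. The largest rise of each family was that of SPZ2 (log2 fold change 1.63), TOLL11 (1.83), GNBPB6 (4.62) and PGRPLA (2.31). GNBPB6 had 0.255, 2.42, 3.55 and 4.66 CPM in BF and 0, 0.229 and 0.0987 CPM in SF ovaries of day 3, where BF replicate 1 was near the SF libraries, and its log2 fold change was 4.01 without SF replicate 1 and 5.67 without SF replicate 2. Of the reads of PGRPLA 65.2% were unique to it, so its value is uncertain.

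Of the 7 members that were not tested, CLIPB22 had 97 read pairs over the 19 libraries, of which 4, 4, 17 and 44 were in day 3 BF and 2, 0 and 2 in day 3 SF ovaries. CLIPB30 (79 read pairs), SRPN7 (60), SRPN21 (74), SRPN23 (83), SRPN24 (5) and SRPN25 (53) had at most 12 read pairs in any library, and their differences were not detectable at this depth. Several tested members overlap a gene on the other strand (CLIPB15, CLIPB43, CLIPC1, CLIPC12, CLIPC13, CLIPE12, PPO4, PPO6, SRPN3, SRPN4 and SRPN19), and since it is not given whether counting used the strand, reads of such partners cannot be told apart there. PPO6, SRPN17 and SRPN26 overlap a gene on the same strand, and their reads are uncertain in the same way.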

How the data were processed

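RNA-Seq of pooled ovaries was analysed in 19 libraries of *Aedes aegypti*, prepared from total RNA with ribosomal RNA removed and a stranded kit. Per the study's methods the authors mapped read pairs to the AaegL5.0 genome in CLC Genomics Workbench. They deposited, for each library, whole-number read counts per gene (total, unique, exon and intron reads) and RPKM, which uses exon reads. Whether counting used the strand, and how reads with several positions were shared, the sources used here do not give. The authors' count column of all gene reads was the main measure.

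Counts were fitted in edgeR 4.0.16 (R 4.3.3, limma 3.58.1) by the quasi-likelihood test over all 6 groups, after filterByExpr (minimum count 10, minimum total 15) and TMM scaling (factors 0.953 to 1.05), with a prior count of 0.125 for fold changes. The common biological coefficient of variation was 0.160 with 13 residual degrees of freedom. P-values were adjusted over 13904 genes by Benjamini and Hochberg, and calls were made at 0.05. DESeq2 1.42.0, RLE and upper-quartile scaling, other count filters, exon and unique reads, the replicate block, fits of single comparisons, a threshold of 0.01 and leaving out each library were alternatives. The test was also run on simulated counts in which few genes changed. Far more genes were called in the day 3 data, so that run does not check the TMM scaling there. Python 3.11.15 (matplotlib 3.10.9, scipy 1.17.1, numpy 2.4.6, pandas 2.3.3) served for tables and plots.

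Depth was 34651820 to 56274885 read pairs on genes per library, so that 1 read pair is about 0.02 CPM. Replicates differed by more than sampling noise (lowest chi-square per degree of freedom 15.2). Per the study's methods the replicates were biological, each a pool of ovaries, so p-values measure the spread between pools. Every member was accounted for. Named with values were all PPO genes, per class and day the 2 largest called rises and falls without overlap between BF and SF, the 2 most abundant members per class, every member called on day 10 or 20 or called different between them, and the 3 largest called changes per direction in SF ovaries with age. Other members named were added after their values were seen. The members and gene lists were chosen with earlier results of these data known. Lists that needed gene descriptions (melanin chemistry, fat body, muscle, germline) could not be matched by symbol and were not analysed here.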

Additional observations from a re-analysis of the deposited data

Results flagged for a closer look

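In the 4 day 3 BF libraries 1 value stood apart from the others in 2 of 42 genes checked, where chance gives about 1 in 20. CLIPB24 had 1.69 CPM in BF replicate 3, against 1.52 to 1.55 CPM in the other BF libraries. CLIPD6 had 7.63 CPM in BF replicate 3, against 9.59 to 9.82 CPM in the other BF libraries. For both genes this library lay on the same side of the day 3 SF libraries as the others did.

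Differences of the diet effect between days were tested as an interaction, and those below had an FDR p-value under 0.05 in edgeR. For day 10 against day 3 the log2 difference was lower for CLIPB46 (-4.36), SRPN6 (-3.32), CLIPA1 (-2.96), CLIPB31 (-2.36), SRPN16 (-2.14), CLIPB42 (-1.94), CLIPC16 (-1.78), CLIPC1 (-1.51), CLIPD9 (-1.17), CLIPD3 (-1.03), CLIPD6 (-0.62) and CLIPD10 (-0.59). It was higher for CLIPB24 (1.69), SRPN5 (0.48), CLIPE12 (0.48) and SRPN3 (0.43). For day 20 against day 3 it was lower for SRPN6 (-2.88), CLIPB31 (-2.71), CLIPC16 (-1.81), CLIPD9 (-1.51), CLIPD3 (-1.05), CLIPC1 (-0.99) and CLIPD10 (-0.65), and higher for CLIPB24 (2.02), SRPN14 (1.84), SRPN3 (0.75), SRPN5 (0.51) and SRPN4 (0.43). The intron share of gene reads was higher in day 3 BF libraries than in the others, and its part in these differences was not tested.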

How the results depend on the processing

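Counts of called CLIP, SRPN and PPO genes moved with several settings on days 10 and 20 and between SF days, and why was not tested. With the replicate block the counts of higher and lower members were 26 and 12 on day 3, 13 and 5 on day 10, 16 and 2 on day 20, and 5 and 7 between SF day 20 and SF day 3. With that replicate block CLIPB15, CLIPB19, CLIPB35, CLIPB39 and CLIPB45 were not called on day 3 (FDR p-values 0.0529 to 0.0982), and CLIPE9 was called lower on day 20 (-1.77, 0.0148). Among the calls that only the block added to the main fit, CLIPB1 was lower on days 10 (-0.27, 0.0199) and 20 (-0.23, 0.0365). CLIPC3 was lower on day 10 (-0.23, 0.0309), and CLIPB24 (0.51, 0.0241) and CLIPB33 (0.94, 0.0479) were higher. Per the methods, all samples but BF day 3 replicate 3 came from 3 biological replicates, numbered 1, 2 and 4. Each of these numbers thus occurs in all 6 groups. That a number marks a shared cohort is not said, and the main fit did not pair samples by number. Deviations of same-numbered BF and SF libraries of a day correlated at 0.000929 to 0.168, those of other pairs at -0.130 to 0.0505. On days 10 and 20 every library correlated best with its own number. Whether the numbers mark shared cohorts cannot be told from these values, so the counts with the block stand beside those of the main fit. Upper-quartile scaling gave 13 and 0 on day 10. Exon reads gave 7 lower members on day 3, 0 lower on day 10 and 2 lower between SF days. Without the low-count filter 0 members were lower on day 10, and fits of single comparisons gave 4. DESeq2 gave 2 lower on day 10, 1 lower on day 20 and 5 higher between SF days. A threshold of 0.01 left 4 higher and 0 lower on day 10, 5 higher on day 20, 2 lower between SF days, and 10 differences of day 10 from day 3. Leaving out each library in turn gave 22 to 30 higher and 10 to 12 lower members on day 3, 6 to 9 and 0 to 1 on day 10, 6 to 13 and 0 to 1 on day 20 (1 without BF replicate 2), 1 to 3 and 2 to 7 between SF days, 12 to 20 differences for day 10 and 12 to 15 for day 20. Between days 20 and 10 the count was 0 in each setting. CLIPD10 on day 20 turned to -0.30 on exon reads and SRPN8 on day 3 to 2.30 on unique reads. No other called value changed direction in the settings run, while small uncalled ones such as PPO6 on day 3 did (-0.53 on exon reads). Genes under 1 RPKM rest on few reads, and small changes were not detectable there at this depth.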
